A study of Mus musculus with 20 samples.

Results

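The gene expression of mural granulosa cells (GCs) was compared in diestrus between 5 mice of the Dummerstorf high fertility line FL1 and 5 mice of the ctrl line, 10 of the 20 samples of the study, chosen by the stage and line that their labels give. The other 10 samples are GCs of the same lines in estrus, again 5 per line, and serve here only to show where the stages differ. Both lines descend from 1 founder population. The ctrl line was not selected, whereas FL1 was selected over many generations for litter size and litter weight. As the study's methods state, the mice were 77 ± 5 days old, the stage was read from vaginal smears, and GCs were taken from the 7 to 10 largest follicles of each mouse without oocyte and cumulus cells. Each mouse gave 1 sample and no agent was given. As each line is a single population, selection and other differences between the lines cannot be told apart.

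GCs line the wall of the follicle and nourish the oocyte. In diestrus a new cohort of follicles grows under FSH, and the GCs of these follicles make inhibins and activins and convert androgens to estradiol by aromatase. After the LH surge GCs luteinize, take up cholesterol by Scarb1, carry it into mitochondria by Star and convert it to progesterone by Cyp11a1 and Hsd3b1. BMPs of oocyte and theca cells hold luteinization back.

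In each mouse between 5446576 and 7870094 (ctrl) or 5625795 and 7601554 (FL1) reads were counted on genes, at the 3′ end of the transcripts. Expression is given as CPM, the read count of a gene scaled to the library size with TMM factors, and per-mouse values follow the replicate numbers 1 to 5. A gene is called at an adjusted p (Benjamini-Hochberg over all genes tested, edgeR's quasi-likelihood test) of 0.05 or less. Ctrl replicate 1 and FL1 replicate 1 stood apart from the others. Their median correlation with the mice of their own line was 0.805 and 0.808, against 0.835 to 0.858 for the other 8 (the first 2 components held 21.9% and 19.3% of the variance of the 500 most variable genes). Ctrl replicate 1 also had the fewest genes detected (13899), and ctrl replicate 4 the highest share of mitochondrial reads (21.3%). Genes whose call is lost without replicate 1 of both lines are given with that value. The GC markers were present in all 10 mice: Inha, the inhibin alpha subunit, ranged from 4581 to 7794 CPM in ctrl and from 3621 to 5968 CPM in FL1, and Foxl2, the transcription factor of the GC fate, from 286 to 594 and from 361 to 646 CPM.

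In diestrus 32 of 12886 genes tested were called (0.248%), of which 12 were stronger expressed (0.0931%) and 20 weaker expressed (0.155%) in FL1. At an unadjusted p under 0.05 there were 716 genes (5.56%), 398 higher and 318 lower in FL1. The values of the lines did not overlap in 201 of all genes tested (1.56%) and in 27 of the 32 called genes. Of these 32, 24 are annotated as protein coding and 6 as processed pseudogenes. The median log2 fold change of all genes tested was 0.01. The plot of the called genes shows every mouse.

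**Figure D1:**
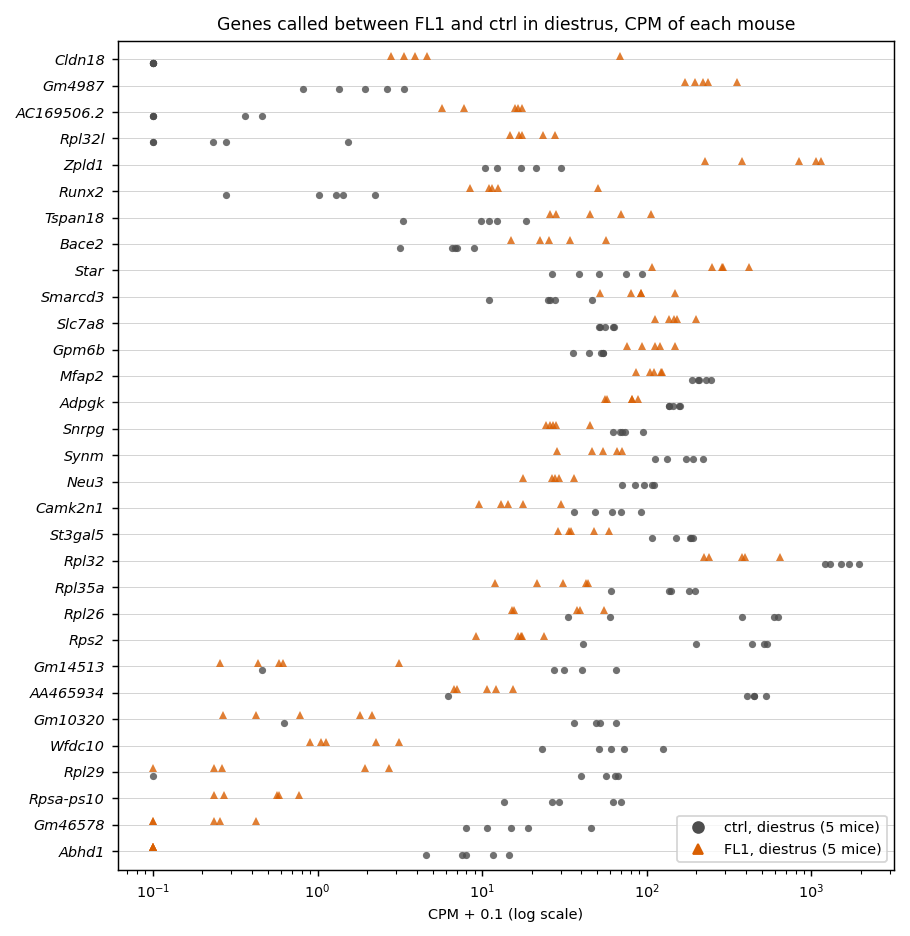
CPM of each mouse in diestrus (x axis, CPM + 0.1, log scale) for 31 of the 32 called genes (y axis), sorted by log2 fold change, with ctrl as grey circles and FL1 as orange triangles. In 26 of them the symbols of the lines do not overlap, while in Gm14513, AA465934, Gm10320, Rpl29 and Rpl26 at least 1 ctrl mouse lies at the level of FL1.

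Genes of steroid synthesis and luteinization were among those higher in FL1. Star (chromosome 8, 25806555 to 25815982), which carries cholesterol to the inner mitochondrial membrane and so starts steroid synthesis, had 26.3, 75.0, 51.2, 38.4 and 93.8 CPM in ctrl and 249.5, 419, 286, 290.1 and 107.7 CPM in FL1. All FL1 mice lay above all ctrl mice, although FL1 replicate 5 came close to ctrl replicate 5. The log2 fold change of Star was 2.25 ± 0.36 (SE), with an adjusted p of 0.009. Runx2 (chromosome 17, 44495987 to 44814797), a transcription factor that the LH surge induces in GCs, had 0.179, 0.914, 1.32, 2.14 and 1.20 CPM in ctrl and 50.5, 12.4, 10.9, 8.38 and 11.4 CPM in FL1. The lines did not overlap, but in FL1 replicate 1 stood out from the rest of its line. The log2 fold change of Runx2 was 4.0 ± 0.73 with an adjusted p of 0.027, and 2.94 with an adjusted p of 0.17 without replicate 1 of both lines.

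Of a list of 14 genes of luteinizing GCs, all tested, 2 were called (Star and Runx2), and 8 had an unadjusted p under 0.05, all higher in FL1, beside 0.248% and 5.56% of all genes tested. The list was chosen with earlier results of these data known, so these counts are not independent evidence of luteinization. The median log2 fold change of the list was 1.06, and 0.68 without replicate 1 of both lines. Cyp11a1, which cleaves the cholesterol side chain, had 163, 559.5, 328, 209.7 and 222 CPM in ctrl and 1755, 573, 449, 455 and 405 CPM in FL1. Here FL1 replicate 1 alone stood out, and the log2 fold change of 1.29 ± 0.41 (adjusted p = 0.49) was 0.51 without replicate 1 of both lines. Scarb1, the receptor that takes cholesterol from HDL, had 284, 565, 419.6, 286 and 287 CPM in ctrl and 822, 599.9, 605, 614 and 626 CPM in FL1. No value of the lines overlapped, but the log2 fold change of 0.83 ± 0.22 was not called (adjusted p = 0.27). Ptgfr, the receptor for the luteolytic prostaglandin F2 alpha, ranged from 14.7 to 42.9 CPM in ctrl and from 30.1 to 298 CPM in FL1 (log2 fold change 2.01 ± 0.51, adjusted p = 0.20, and 1.19 without replicate 1 of both lines). Hsd3b1, which makes progesterone from pregnenolone, ranged from 1716 to 6189 CPM in ctrl and from 3138 to 6535 CPM in FL1, with a log2 fold change of 0.21 ± 0.31.

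In contrast, none of 17 tested markers of mural GCs was called, and none had an unadjusted p under 0.05 (median log2 fold change -0.03). Fshr, the receptor for FSH, had 110.6, 197, 100.4, 198 and 132 CPM in ctrl and 84.4, 100.6, 77.3, 91.8 and 172 CPM in FL1 (log2 fold change -0.49 ± 0.26, adjusted p = 0.97). Cyp19a1, the aromatase, ranged from 4.997 to 220 CPM in ctrl and from 74.3 to 219.5 CPM in FL1. Thus both lines overlapped in these genes, and the summed CPM of the mural list was 18446 to 27417 in ctrl and 17663 to 29487 in FL1.

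Markers of other cells were present, with the highest sums of red blood cell, endothelium, macrophage and theca genes in FL1 replicates 1 and 2. In bulk samples fewer cells of a type and less RNA per cell cannot be told apart. The summed CPM of 8 red blood cell genes was between 47.8 and 348 in ctrl and between 141 and 1610 in FL1, with FL1 replicates 1 and 2 highest (1610 and 1099). The 12 endothelial genes summed to between 42.7 and 79.8 CPM in ctrl and between 53.3 and 216 CPM in FL1, and the 15 genes of macrophages and antigen-presenting cells to between 16.3 and 64.1 and between 30.7 and 178 CPM. For theca and stroma (14 genes) the sums were 546 to 1261 CPM in ctrl and 554 to 1828 CPM in FL1, for smooth muscle and pericytes (10 genes) 208 to 616 and 78.6 to 1294 CPM. In all of these sums FL1 replicate 1 was the highest of the 10 mice. No gene of these lists was called, but the medians of the log2 fold changes were 1.61 for red blood cells (4 tested), 1.24 for macrophages (11 tested), 0.84 for endothelium (11 tested) 0.72 for theca and stroma (12 tested) and 0.02 for smooth muscle and pericytes (9 tested). Without replicate 1 of both lines these were 0.94, 0.92, 0.51, 0.38 and -0.46. An unadjusted p under 0.05 was found in 3, 2, 2, 2 and 1 genes of these lists, all higher in FL1, beside 5.56% of all genes. Whether these cells have a part in the values of Runx2, Cyp11a1 or Ptgfr was not tested. Lymphocyte genes (13) summed to at most 6.77 CPM and neutrophil genes (10) to at most 4.03 CPM, and 5 and 7 of them, among these Cd8a, Ly6g and Mpo, were at 0 in all 10 mice. The sums of cumulus (8 genes), oocyte (13 genes), surface epithelium (11 genes) and adipocyte (8 genes) markers overlapped between the lines and did not exceed 614, 703, 71.5 and 28.8 CPM.

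**Figure D2:**
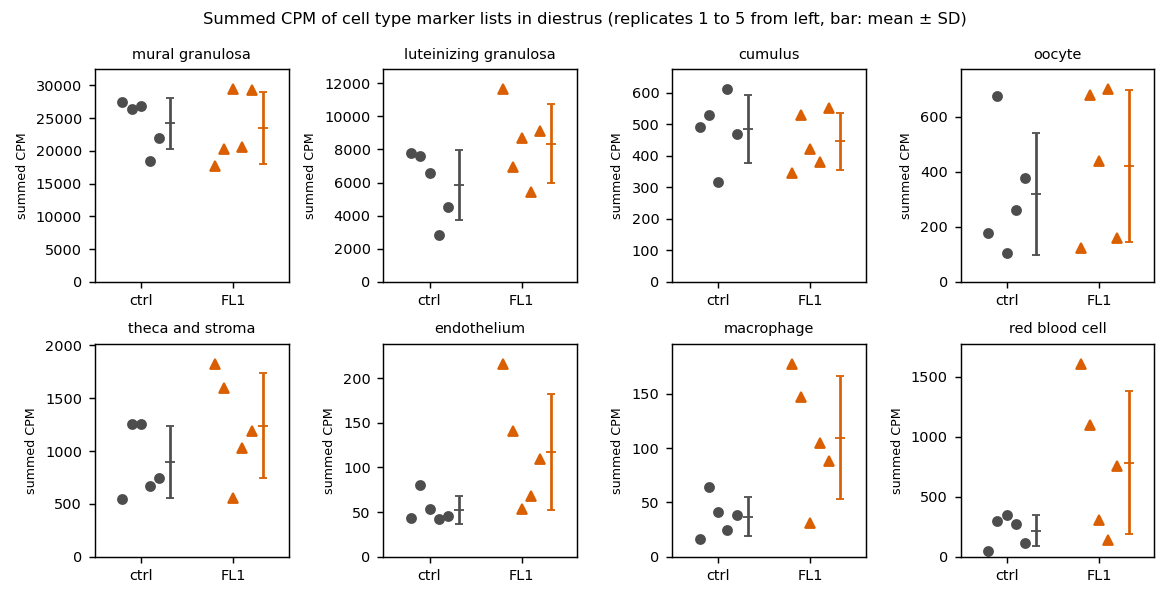
Summed CPM of the genes of 8 marker lists (y axis, from 0) in each mouse in diestrus, ctrl as grey circles and FL1 as orange triangles in the order of the replicate numbers, with mean ± SD over 5 mice beside them. The sums of mural GC markers overlap (18446 to 27417 and 17663 to 29487 CPM), and FL1 replicate 1 is highest for luteinizing GCs, theca and stroma, endothelium, macrophages and red blood cells.

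In the list of inhibin, activin, AMH and BMP signaling 43 genes were tested, with a median log2 fold change of 0.00. Here Bambi, a decoy receptor of BMP and activin, had 14.2 to 28.2 CPM in ctrl and 41.4 to 51.8 CPM in FL1. Bambi did not overlap between the lines, yet it was not called (log2 fold change 1.11 ± 0.25, adjusted p = 0.10).

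A pair of enzymes of gangliosides, the sialic acid lipids of the plasma membrane, was weaker expressed in FL1. St3gal5 (chromosome 6, 72097592 to 72154571) makes GM3, from which most other gangliosides derive. It had 185, 184, 189.8, 151 and 106.8 CPM in ctrl and 29.0, 33.5, 47.7, 34.7 and 58.5 CPM in FL1. Neu3 (chromosome 7, 99811439 to 99828417), the sialidase that removes sialic acid from gangliosides at the cell surface, had 84.9, 110.8, 95.9, 71.0 and 107.96 CPM in ctrl and 26.3, 27.7, 29.1, 17.6 and 36.0 CPM in FL1. In both enzymes all FL1 mice lay below all ctrl mice, with log2 fold changes of -2.01 ± 0.24 (adjusted p = 0.00064) and -1.78 ± 0.23 (adjusted p = 0.0014). Of 36 tested genes of ganglioside and sphingolipid metabolism these were the called ones, and the median log2 fold change of the list was 0.01. Cers5, a ceramide synthase and the gene of the list with the most reads, overlapped between the lines (log2 fold change 0.24 ± 0.23).

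Among transporters and metabolic enzymes, Slc7a8 (chromosome 14, 54722209 to 54781946), which carries neutral amino acids across the membrane, was higher in FL1. The values were 51.3, 55.4, 52.1, 62.1 and 63.2 CPM in ctrl and 111.7, 153, 137, 198 and 147 CPM in FL1. The lowest FL1 mouse was above the highest ctrl mouse, and the log2 fold change was 1.39 ± 0.20 (adjusted p = 0.0027). Of 28 tested transporters of amino acids, glucose and taurine it was the one that was called, while Slc6a6, the taurine transporter, overlapped (110.8 to 229 CPM in ctrl, 188 to 409 CPM in FL1, log2 fold change 0.87 ± 0.25, adjusted p = 0.35). Adpgk, a glucokinase that uses ADP, fell in FL1, with 136 to 159.8 CPM in ctrl and 55.8 to 87.8 CPM in FL1 (log2 fold change -1.01 ± 0.19, adjusted p = 0.036). Me2, the mitochondrial malic enzyme, had 270.4 to 367 CPM in ctrl and 126 to 221 CPM in FL1 without overlap, but was not called (log2 fold change -0.94 ± 0.20, adjusted p = 0.083). In the list of glycolysis, pentose phosphate and citrate cycle none of 50 tested genes was called, and none of 71 tested subunits of oxidative phosphorylation (medians 0.10 and 0.00, and -0.04 and -0.21 without replicate 1 of both lines).

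Zpld1 and Wfdc10, 2 protein-coding genes without a near-identical copy, differed strongly in opposite directions. Zpld1 (chromosome 16, 55225175 to 55297986) encodes a membrane protein with a zona pellucida domain. It had 29.9, 12.3, 21.03, 10.4 and 17.0 CPM in ctrl and 224, 837, 1148, 377 and 1065 CPM in FL1, a log2 fold change of 5.33 ± 0.46 (adjusted p = 2.1e-05). Every FL1 mouse had many times the level of every ctrl mouse, with a wide spread within FL1. Wfdc10 (chromosome 2, 164656046 to 164657368), of a family of small secreted protease inhibitors, was the reverse. Its values were 51.3, 73.0, 23.02, 126 and 60.3 CPM in ctrl and 2.17, 0.956, 0.805, 1.03 and 3.03 CPM in FL1, a log2 fold change of -5.38 ± 0.51 (adjusted p = 3.2e-05). It overlaps Wfdc9 on the other strand, and the strand setting of the counts is not given in the sources used here, so reads of the 2 genes cannot be told apart. Abhd1 (chromosome 5, 30950066 to 30955091), an alpha/beta hydrolase domain gene that overlaps Preb on the other strand, had 4.48, 7.84, 14.6, 11.6 and 7.44 CPM in ctrl and no read in any FL1 mouse. It was thus at least 19.3-fold lower in FL1, computed against 3 counts per mouse (adjusted p = 0.013). Cldn18 (chromosome 9, 99689461 to 99717267), a claudin of tight junctions, had no read in any ctrl mouse and 68.6, 3.82, 4.51, 3.25 and 2.69 CPM in FL1. The same floor gives an increase in FL1 of at least 36.7-fold (adjusted p = 0.036). This bound uses the mean of FL1, which FL1 replicate 1 dominates, and without replicate 1 of both lines Cldn18 was not called (adjusted p = 0.21).

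Further called genes encode proteins of the cytoskeleton, the matrix and the spliceosome. Synm, the intermediate filament protein synemin, fell from 133, 172, 219.6, 112.4 and 191 CPM in ctrl to 28.2, 66.1, 54.1, 70.1 and 46.6 CPM in FL1 (log2 fold change -1.64 ± 0.26, adjusted p = 0.009). Mfap2, a protein of the microfibrils of elastic fibers, fell from 189 to 246 CPM in ctrl to 86.1 to 123 CPM in FL1, the smallest change among the called genes (log2 fold change -0.98 ± 0.18, adjusted p = 0.028). It was the one called gene of 48 tested in the list of collagens, laminins and basal lamina. Camk2n1, an inhibitor of the calcium/calmodulin-dependent kinase II, fell from 36.2 to 92.3 CPM in ctrl to 9.50 to 30.1 CPM in FL1 (log2 fold change -1.86 ± 0.34, adjusted p = 0.027). Snrpg, a core protein of the spliceosome, fell from 62.0 to 95.2 CPM to 24.2 to 44.8 CPM (log2 fold change -1.30 ± 0.24, adjusted p = 0.027). No value of the lines overlapped in these 4 genes. Synm, Adpgk, Smarcd3 and Runx2 overlap Ttc23, Bbs4, Chpf2 and Supt3 on the other strand, and Snrpg has 4 near-identical copies. St3gal5 overlaps Gm29438 on the same strand and 4933431G14Rik on the other. Of the called genes described below, Rps2 overlaps Snora64 on the same strand and Snhg9 and Snora78 on the other. Gm46578 overlaps Scaf8 on the other strand, and AA465934 overlaps Snord7 on the same strand.

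Higher in FL1 without overlap were also Smarcd3, Gpm6b, Bace2 and Tspan18. Smarcd3, a subunit of the SWI/SNF chromatin remodeler, had 46.2, 27.7, 25.8, 10.9 and 25.0 CPM in ctrl and 148, 52.0, 79.7, 92.0 and 92.1 CPM in FL1 (log2 fold change 1.77 ± 0.34, adjusted p = 0.036). It was the one called gene of 35 tested chromatin remodelers and histone enzymes, and its paralog Smarcd1 had 62.4 to 113.8 CPM in ctrl and 45.6 to 64.9 CPM in FL1 (log2 fold change -0.67 ± 0.22, adjusted p = 0.52). Gpm6b, a membrane glycoprotein of the proteolipid family, ranged from 35.5 to 54.0 CPM in ctrl and from 75.8 to 148 CPM in FL1 (adjusted p = 0.034). Bace2, an aspartyl protease, ranged from 3.05 to 8.78 and from 14.8 to 56.4 CPM (adjusted p = 0.036), and Tspan18, a tetraspanin, from 3.21 to 18.4 and from 25.7 to 105.7 CPM (adjusted p = 0.044). Without replicate 1 of both lines Mfap2, Gpm6b, Bace2, Adpgk and Tspan18 were not called (adjusted p from 0.063 to 0.13), in the same direction with log2 fold changes of -0.98, 1.06, 2.05, -0.93 and 2.34. With 1 mouse left out in turn, the call of Adpgk was lost in all 10 fits, that of Gpm6b in 9, those of Snrpg, Smarcd3 and Bace2 in 8 and those of Camk2n1, Mfap2 and Tspan18 in 7 (highest adjusted p of these fits between 0.093 and 0.16), in the same direction throughout.

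Genes for ribosomal proteins, the protein part of the ribosome, and their processed pseudogenes were also among the calls. The processed pseudogenes are copies without introns, and the reads of a gene and of its copies can be assigned to one another where the sequences are near-identical. Of 79 ribosomal protein genes tested, 5 were weaker and 0 stronger expressed in FL1 (called, beside 0.155% and 0.0931% of all genes), and the median log2 fold change was -0.23. At an unadjusted p under 0.05 there were 11 lower and 3 higher, beside 5.56% of all genes in either direction. The summed CPM of these genes overlapped between the lines, with 23828 to 41550 in ctrl and 18998 to 40490 in FL1.

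Rpl32 (chromosome 6, 115805505 to 115808747) and 3 of its copies, Gm4987 (chromosome X, 46455887 to 46456294), Rpl32l (chromosome 10, 20208490 to 20208888) and AC169506.2 (chromosome 17, 74332008 to 74332529), were all called, the gene lower and the copies higher in FL1. The copies match the Rpl32 transcript at 95.1% (over 408 nt), 96.0% (over 404 nt) and 92.6% (over 272 nt). A stretch of 30 nt (bases 153 to 182 of the Rpl32 transcript of 517 nt, GENCODE M21 on GRCm38) shows bases that tell them apart. It was chosen, among stretches without gaps, for the most differing bases, so it is not typical of the whole transcript. The transcripts of Rpl32, Gm4987 and AC169506.2 come from the minus strand and that of Rpl32l from the plus strand, and capitals mark bases that differ from Rpl32, or in Rpl32 the bases at which a copy differs.
Rpl32: GaAactggCggAaacccagaggcaTTGacA
Gm4987: AaaactggTggaaacccagaggcatCTaca
Rpl32l: gaaactggcggaaacccagaggcatCgacC
AC169506.2: gaGactggcggGaacccagaggcaCCAaca

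Rpl32 had 1287, 1521, 1679, 1946 and 1204 CPM in ctrl and 644, 376, 239, 223 and 394 CPM in FL1 (log2 fold change -2.03 ± 0.28, adjusted p = 0.0019). The reverse was found for Gm4987, with 0.717, 3.27, 1.85, 1.25 and 2.52 CPM in ctrl and 352, 218, 170.5, 196 and 236 CPM in FL1 (log2 fold change 6.88 ± 0.37, adjusted p = 2.3e-08), the lowest p of all genes. All ctrl mice were near 0 for this copy and all FL1 mice were far above. Rpl32l ranged from 0 to 1.44 CPM in ctrl and from 14.7 to 27.6 CPM in FL1 (log2 fold change 5.69 ± 0.89, adjusted p = 0.0086). AC169506.2, with at most 2 counts in a ctrl mouse and 5.63 to 17.3 CPM in FL1, was at least 27.8-fold higher in FL1 against 3 counts per mouse (adjusted p = 0.009). Rpl32 overlaps Cand2 on the other strand, and Rpl32l lies within Map7. Rpl32 pooled with its 9 copies at 90% identity had 1533 ± 298 CPM (SD, n = 5) in ctrl and 645 ± 249 CPM in FL1. The pooled log2 difference of -1.31 had an exact permutation p of 0.00794 (two-sided), the smallest that 5 against 5 mice can give. The sum of the reads counted on gene and copies was thus also lower in FL1. Reads that matched several places in the genome were not counted on any gene and are missing from all pooled values. Such reads were 24.02% to 31.37% of all reads in ctrl and 23.17% to 32.50% in FL1. How many of them came from Rpl32 or its copies was not tested.

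**Figure D3:**
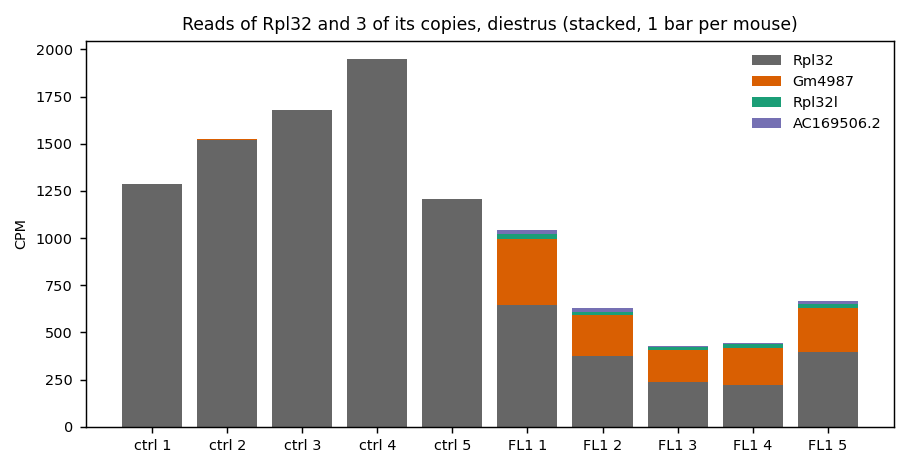
CPM of Rpl32 (grey), Gm4987 (orange), Rpl32l (green) and AC169506.2 (violet) stacked in 1 bar per mouse in diestrus (y axis from 0). In ctrl nearly all reads lie on Rpl32 (1204 to 1946 CPM), whereas in FL1 Gm4987 adds 170.5 to 352 CPM to 223 to 644 CPM of Rpl32.

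Rpl34 and Gm46578, a processed pseudogene on chromosome 17 (3130158 to 3130512), formed a similar pair in the other direction. Gm46578 had 7.88, 10.6, 18.8, 45.9 and 14.9 CPM in ctrl and at most 2 counts in each FL1 mouse, at least 41.3-fold lower (adjusted p = 0.00064). Rpl34 had 494, 56.4, 59.1, 73.4 and 44.9 CPM in ctrl and 1683, 817, 611, 678 and 891 CPM in FL1. Ctrl replicate 1 was close to the range of FL1, unlike the other 4 ctrl mice. Rpl34 was not called among all 10 mice (log2 fold change 2.69 ± 0.59, adjusted p = 0.095), and was called without replicate 1 of both lines (3.68, adjusted p = 9.2e-07). Gm46578 pooled with its 8 copies, Rpl34 included, had 188 ± 188 CPM (SD, n = 5) in ctrl and 955 ± 438 CPM in FL1 (exact permutation p = 0.00794).

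The other called ribosomal protein genes differed in which ctrl mice were high. Rps2 had 41.0, 434, 539, 514 and 198 CPM in ctrl and 23.7, 9.01, 16.4, 17.3 and 17.1 CPM in FL1 (log2 fold change -4.37 ± 0.53, adjusted p = 0.00064). For Rpl29 ctrl replicate 1 had 0 CPM, the other ctrl mice 39.7 to 67.1 CPM and the FL1 mice 0 to 2.63 CPM (log2 fold change -5.55 ± 1.09, adjusted p = 0.044). Rpl26 had 59.3, 33.2, 592, 625 and 379 CPM in ctrl and 15.04 to 55.1 CPM in FL1 (log2 fold change -3.38 ± 0.67, adjusted p = 0.046). Thus in Rps2, Rpl29 and Rpl26 ctrl replicate 1 lay at or near the level of FL1, as did ctrl replicate 2 in Rpl26. Rpl35a had 195, 136, 60.2, 180.4 and 140.4 CPM in ctrl and 11.8 to 43.5 CPM in FL1 without overlap (log2 fold change -2.24 ± 0.36, adjusted p = 0.009).

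With near-identical copies pooled, the line difference had an exact permutation p of 0.05 or less in 8 of the 13 called genes that have copies. Of these 8, Rpl32, Gm4987, Rpl32l and AC169506.2 pool mostly the same reads, and Gm46578 with its copies was higher in FL1, against its own direction. The pooled values of Rpsa-ps10 did not differ beyond the spread between the mice, with 80.5 ± 27.3 CPM in ctrl and 81.7 ± 17.6 CPM in FL1 (SD, n = 5, exact permutation p = 0.85), although Rpsa-ps10 alone fell from 13.5 to 70.0 CPM to 0.137 to 0.672 CPM (adjusted p = 2.9e-05). The same held for Gm10320 (155 ± 20.5 and 176 ± 34.0 CPM, exact permutation p = 0.29) and Gm14513 (1961 ± 1185 and 2607 ± 963 CPM, exact permutation p = 0.25). For Rpl29 and Rpl26 the pooled differences of -1.11 and -2.32 on the log2 scale had exact permutation p of 0.095 and 0.056. With copies at 95% identity they were -1.37 and -2.31, with exact permutation p of 0.048 and 0.063, so for Rpl29 the outcome depends on this limit. Rps2 with its 81 copies had 395 ± 206 CPM in ctrl and 100.8 ± 42.5 CPM in FL1, a log2 difference of -1.83 (exact permutation p = 0.016) against -4.37 for Rps2 alone, and Rpl35a with its 25 copies had a log2 difference of -1.51 (exact permutation p = 0.00794). The pooled sum of Snrpg was lower in FL1 (83.0 ± 13.7 and 44.9 ± 12.5 CPM, exact permutation p = 0.00794).

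Single ctrl mice at the FL1 level were also seen outside the ribosomal genes. AA465934, a transcript without a coding annotation on chromosome 11 (83291699 to 83294632), had 445, 532, 450.3, 6.07 and 408 CPM in ctrl and 6.67 to 15.2 CPM in FL1 (log2 fold change -5.16 ± 0.73, adjusted p = 0.0027). Ctrl replicate 4 lay below every FL1 mouse. Gm10320 had 0.523 CPM in ctrl replicate 2 and 36.2 to 64.9 CPM in the other ctrl mice, against 0.168 to 2.05 CPM in FL1, and Gm14513 had 0.357 CPM in ctrl replicate 4 and 27.2 to 65.3 CPM in the others, against 0.155 to 3.004 CPM in FL1. No FL1 mouse reached the high level of ctrl in any of the 3. Without replicate 1 of both lines Gm10320 and Gm14513 were not called (adjusted p = 0.052 and 0.11). Gm11942, a processed pseudogene among the genes next below the threshold, had 773 and 912 CPM in ctrl replicates 1 and 2, 0.930 to 13.2 CPM in the other ctrl mice and 1.68 to 4.78 CPM in FL1 (adjusted p = 0.062).

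Of the 15 genes next below the threshold, Jam2, Thnsl2, Hspe1, Rpl3, Gm11942, Cep97, Slitrk1, Me2, Hpgd and Etl4 were lower and Mmd2, Kazald1, Rgcc, Celsr1 and Rpl34 higher in FL1, with adjusted p between 0.058 and 0.095. Hpgd, which inactivates prostaglandins, had 58.6, 156, 159.8, 256 and 154 CPM in ctrl and 42.3, 77.1, 26.6, 42.2 and 75.0 CPM in FL1 (log2 fold change -1.57 ± 0.35). Ctrl replicate 1 lay within the range of FL1, and without replicate 1 of both lines Hpgd was called (-1.72, adjusted p = 0.036). Rgcc, a regulator of the cell cycle that hypoxia and p53 induce, ranged from 35.2 to 151 CPM in ctrl and from 131 to 356 CPM in FL1. Slitrk1 had 1.57 to 11.2 CPM in ctrl and no read in any FL1 mouse, at least 12.1-fold lower against 3 counts per mouse.

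In the lists of functional groups 9 of 1055 genes tested were called (among them Star, Runx2, St3gal5, Neu3, Slc7a8, Cldn18, Mfap2 and Smarcd3), beside 0.248% of all genes, and 129 had an unadjusted p under 0.05, beside 5.56%. As the lists were written with earlier results of these data known, an excess over these shares cannot be read as an enrichment. Of 15 tested genes of progesterone synthesis and inactivation, Star was called and 4 had an unadjusted p under 0.05, all higher (median log2 fold change 0.21). One of these was Hsd11b2, which inactivates glucocorticoids, with 102.6 to 274 CPM in ctrl and 241 to 863 CPM in FL1 (adjusted p = 0.20). No gene was called among 11 of estrogen synthesis and steroid hydroxylation (median -0.10), 26 of cholesterol synthesis (0.01), 22 of cholesterol uptake, storage and efflux (0.10), 45 of fatty acid and triglyceride metabolism (0.09) or 28 gonadotropin and hormone receptors with their signaling genes (0.15). Hsd17b7, an enzyme of both estrogen and cholesterol synthesis, had 45.3, 80.2, 73.8, 123 and 47.9 CPM in ctrl and 864, 249, 117, 135 and 74.5 CPM in FL1. FL1 replicate 1 was the highest by far, and the log2 fold change of 1.96 ± 0.54 (adjusted p = 0.30) was 0.82 without replicate 1 of both lines.

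The groups with the highest medians were complement and acute phase genes (0.68, 17 tested), angiogenic ligands and inhibitors (0.64, 26 tested), ovulation and cumulus expansion (0.51, 13 tested) and retinoid metabolism and receptors (0.41, 18 tested). Without replicate 1 of both lines these medians were 0.26, 0.47, 0.60 and 0.17. Among the ovulation genes Runx2 was called, and in the other 3 groups none was. C2, a complement component, had 2.51 to 18.5 CPM in ctrl and 20.9 to 59.6 CPM in FL1 (adjusted p = 0.26), Sema7a, a semaphorin, 196 to 347 and 305 to 728 CPM (adjusted p = 0.13), and Crabp2, which carries retinoic acid to the nucleus, 66.0 to 125 and 138 to 292 CPM (adjusted p = 0.19). In the angiogenic list 22 genes had a positive and 4 a negative log2 fold change, and Rgcc, Sema7a and Hif1a had an unadjusted p under 0.05, all higher in FL1.

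Among 31 tested genes of MHC class I and peptide loading none was called. H2-K1, a classical class I heavy chain, had 59.0, 61.0, 108.2, 177 and 183 CPM in ctrl and 309, 288, 301, 266 and 287 CPM in FL1 (log2 fold change 1.30 ± 0.30, adjusted p = 0.10), and H2-D1 had 50.1 to 161 and 163 to 280.1 CPM (1.02 ± 0.30, adjusted p = 0.41). The lines did not overlap in either gene, but 16 and 163 other genes match their last 500 nt in part, so these values are uncertain. In the list of BCL2 family, caspases and death receptors none of 48 tested genes was called. Ccng1, a cyclin that p53 induces, had 55.2 to 86.9 CPM in ctrl and 96.7 to 163 CPM in FL1 without overlap (log2 fold change 0.92 ± 0.21, adjusted p = 0.095). Tnfsf10, the death ligand TRAIL, had 1.96 to 8.07 and 7.13 to 31.7 CPM (2.08 ± 0.53, adjusted p = 0.20). Of 49 tested genes of cell cycle and proliferation none was called, and 37 had a positive log2 fold change (median 0.16).

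For the remaining groups no call was made among 34 immediate early and stress response genes (median -0.09), 43 of the Wnt pathway (0.18), 23 of the Notch pathway (0.02), 24 of arachidonate and prostaglandin metabolism (0.27), 46 inositol phosphate and phosphatase genes (-0.04), 36 of sodium pump and ion transport (0.17), 33 of metal handling (0.31), 37 antioxidant enzymes (0.04), 20 matrix proteases and inhibitors (0.23), 11 of the renin-angiotensin system and peptidases (0.11), 20 S100 proteins, galectins and annexins (0.28), 29 of the insulin and IGF system (0.04) and 30 of translation factors (0.03). Without replicate 1 of both lines the medians of the prostaglandin, antioxidant, S100 and translation lists were negative (-0.02, -0.17, -0.07 and -0.08), as was that of the BCL2 family list (0.06 with all 10 mice, -0.07 without these). Kcnj2, an inward rectifier potassium channel, had 4.46 to 32.3 CPM in ctrl and no read in 4 of 5 FL1 mice, with 3.36 CPM in FL1 replicate 5 (adjusted p = 0.26). Of 26 tested GC transcription factors Runx2 was the called one. Foxo1, a transcription factor that FSH signaling restrains, ranged from 1294 to 2424 CPM in ctrl and from 1103 to 1958 CPM in FL1 (log2 fold change -0.48 ± 0.21, adjusted p = 0.86). Gjc1, a connexin, had 14.7 to 58.0 CPM in ctrl and 0 to 14.1 CPM in FL1 (adjusted p = 0.36), and was listed with Cldn18 among 16 tested genes of the oocyte arrest signal and gap junctions.

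**Figure D4:**
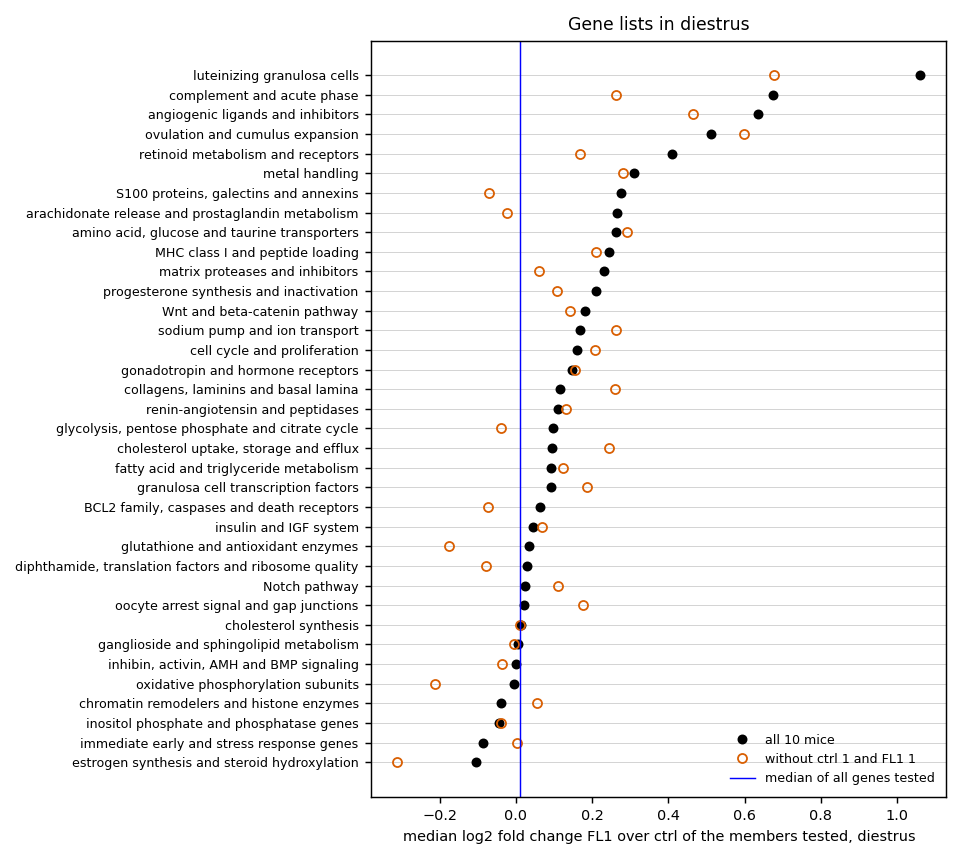
Median log2 fold change of FL1 over ctrl in diestrus (x axis) over the tested members of 35 functional lists and of the luteinizing GC list (y axis), for all 10 mice (black) and without replicate 1 of both lines (open orange), with the median of all genes tested (0.01) as a blue line. Among the lists drawn the luteinizing list is highest with 1.06 (0.68 without these mice), and estrogen synthesis and steroid hydroxylation lowest with -0.10 (-0.31). Not drawn are the marker lists of red blood cells (1.61), adipocytes (1.53, 2 genes tested) and macrophages (1.24), whose medians were higher. Without these mice they were 0.94, 0.86 and 0.92.

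The line difference in diestrus was set beside that in estrus, where 100 of 13007 genes were called (0.769%) in other mice of the same lines. Of the 32 genes called in diestrus 29 were tested in estrus, all with the same direction there, and 14 were also called. Among these 14 were Zpld1 (log2 fold change 5.33 ± 0.46 in diestrus and 7.0 in estrus), St3gal5 (-2.01 and -2.14), Neu3 (-1.78 and -2.16), Star (2.25 and 2.10), Runx2 (4.0 and 3.57) and Wfdc10 (-5.38 and -5.87). The interaction of line and stage was tested for 14938 genes and called for 0 by edgeR, with 710 at an unadjusted p under 0.05 and a lowest adjusted p of 0.933. DESeq2 called 1 interaction, that of Smim5. Of the 32 called genes 8 had an unadjusted interaction p under 0.05, namely Gm4987, Rpl32l, AC169506.2, Zpld1, Synm, Abhd1, Gpm6b and Tspan18. The 32 genes were selected by the same diestrus mice that enter the interaction, so this share cannot be set against that of all genes. For Synm the log2 fold change was -1.64 in diestrus and -0.20 in estrus, with an unadjusted interaction p by edgeR of 0.0089. For Tspan18 the values were 2.32 and 0.56, with an unadjusted p of 0.0078, and for Gm4987 6.88 and 2.49. None of these differences between the stages passed the correction.

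**Figure D5:**
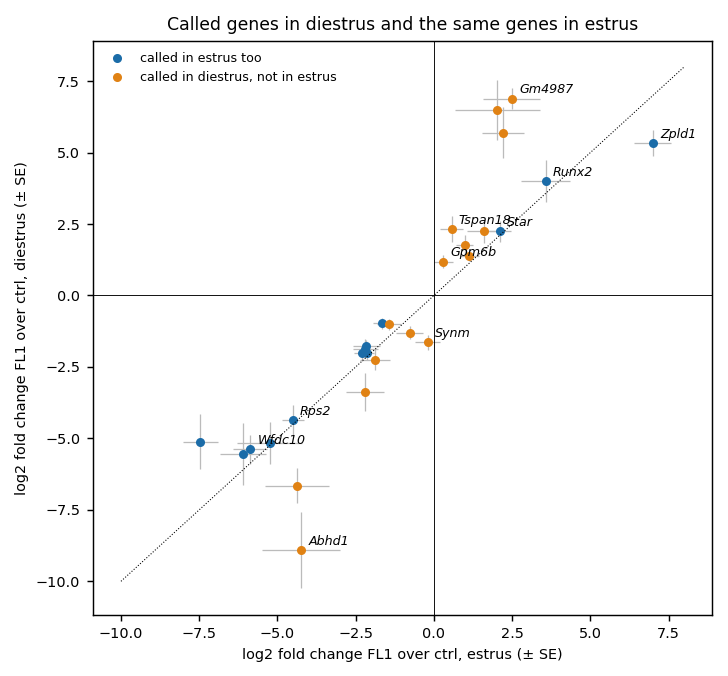
Log2 fold change of FL1 over ctrl in estrus (x axis) and in diestrus (y axis), each ± SE, for 28 called genes tested in both stages, in blue where the gene was also called in estrus (13 genes) and in orange where it was not. All 28 points lie in the quadrants of the same direction, and Gm4987, Synm and Tspan18 lie away from the dotted line of equal change.

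The genes with the lowest interaction p were Hspb7, Kctd14, Slitrk1, Mt2 and Ndrg2. Kctd14, a gene of the BTB domain family, had 70.7 to 211 CPM in ctrl and 76.3 to 148 CPM in FL1 in diestrus (log2 fold change -0.21), and a log2 fold change of -1.82 in estrus. Mt2, a metallothionein that binds zinc, had log2 fold changes of -0.11 in diestrus and 1.40 in estrus, and Ndrg2 of -0.12 and 1.32. In these 3 genes the lines overlapped in diestrus.

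Of 68 genes with an unadjusted p under 0.001, 3 pairs lay within 1 Mb of each other. Thnsl2 and St3gal5 (953 kb apart on chromosome 6) were both lower in FL1. Zpld1 and Cep97 (602 kb apart on chromosome 16) had opposite directions, and so had Ubb and Snord49b (49.9 kb apart on chromosome 11).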

How the data were processed

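RNA of GCs of 20 mice was sequenced from the 3′ end. Raw counts for the genes of Ensembl were deposited by the authors, obtained from trimmed reads by STAR alignments to GRCm38. The counter and strand setting are not given in the sources used here. Symbols and positions are those of GENCODE M21 (55227 of 55487 identifiers matched). The 10 diestrus samples were compared with edgeR 4.0.16 (R 4.3.3, TMM, filterByExpr with a minimum count of 10, minimum total of 15 and minimum share of 0.7, quasi-likelihood F test), each mouse being 1 replicate. The interaction was fitted to all 20 samples. Alternatives were DESeq2 1.42.0, limma 3.58.1 (voom with sample weights), RLE and upper quartile factors, other filters, all samples in 1 fit, robust estimation, a block on replicate number, and fits with samples left out. A group with 3 counts or fewer in every mouse gives a lower bound of the fold change. Copies were found with BLAST 2.17.0 (last 500 nt of transcripts, at least 90% identity over 100 nt) and pooled with a pseudocount of 0.5. Named are the called genes, the 15 next by p, the 2 members with the lowest p and the one with the highest count of each list, the 5 with the lowest interaction p, markers with the highest counts, Foxl2, Fshr, Cyp19a1 and Inha, and copies. Hif1a, Smim5, Ubb and Snord49b were named after their values were seen. Lists and tests were chosen with earlier results of these data known. The tools were tested on simulated data. Counting limits the precision of low genes, and the bounds cover counting error only. Some items are not reported here.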

Additional observations from a re-analysis of the deposited data

Results flagged for a closer look

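In 162 named genes and 13 marker sums each line was checked for a mouse far from the other 4 (the gap to the nearest mouse over the whole range, in CPM, above 0.71). Of 350 groups 28 met this. The limit is passed by about 1 in 20 groups of independent, normally distributed values. The CPM of these genes, chosen partly by their p, need not be such values, so an excess over chance was not tested. In 11 of the 28 the mouse was FL1 replicate 1, and each time it was the highest.

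FL1 replicate 1 was highest for Cldn18 (ratio 0.972), Runx2 (0.904), Scarb1 (0.881), Cyp11a1 (0.876), Snrpg (0.811), Cyp1b1 (0.786), Hsd17b7 (0.778), Smarcd1 (0.775), Timp1 (0.750), Prdx1 (0.749) and Rpl34 (0.739). In ctrl, replicate 1 was highest for Rpl34 (0.937) and lowest for Foxo1 (0.808) and Idh3a (0.756). Ctrl replicate 2 was highest for Rpl32l (0.875) and for the endothelial sum (0.721), and ctrl replicate 3 for Soat1 (0.807) and Kazald1 (0.764). Ctrl replicate 4 was highest for Gm46578 (0.713) and lowest for AA465934 (0.765) and Fbln1 (0.735), and ctrl replicate 5 lowest for Mdh2 (0.802). In FL1, replicate 2 was highest for Gm14513 (0.874) and lowest for Hspe1 (0.837). FL1 replicate 5 was highest for Kcnj2 (1), Fshr (0.753) and Bmpr1b (0.723), and FL1 replicate 4 for Notch4 (1), where all other FL1 mice had 0 CPM for Kcnj2 and Notch4.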

How the results depend on the processing

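In diestrus 12 genes were called higher and 20 lower in FL1. DESeq2 called 61 and 57 on the 10 mice and 49 and 54 on all 20, and edgeR without a filter on low counts 55 and 52. With the replicate number as a block 5 and 8 were called, 12 of these 13 among the 32. The numbers do not pair the mice, since same-numbered mice correlated between -0.139 and 0.133 in their deviations from the line means, and FL1 replicate 2 alone correlated best with its own number. RLE or upper quartile factors, a mean count filter, all samples in 1 fit, robust estimation and limma-voom gave 27 to 32 calls. Of the 32 genes limma-voom lost 14 (among them Rpsa-ps10, Wfdc10, AA465934 and Runx2, adjusted p = 0.35, 0.19, 0.49 and 0.30), all samples in 1 fit 7 and robust estimation 6. With 1 mouse left out 7 to 11 genes were called higher (7 without ctrl replicate 4, ctrl replicate 5 or FL1 replicate 1) and 13 to 21 lower (13 without FL1 replicate 3 or 4), and 17 of the 32 in all 10 of these fits. Rpl29 and Rpl26 were lost in 8 of these, Gm14513 in 7 and Cldn18 in 6. Without replicate 1 of both lines, chosen after seeing the data, 33 were called, 23 of them among the 32. No called gene changed its direction under any of these alternatives. Where a count moved, the cause was not tested.

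The interaction had 0 calls in every edgeR fit (0 to 0 with 1 mouse left out) and 1 with DESeq2. In the functional lists DESeq2 called 34 members in place of 9, and leaving out 1 mouse gave 5 to 10 (5 without ctrl replicate 3). In the marker lists DESeq2 called 6 in place of 2, and leaving out 1 mouse gave 1 to 2. Runx2 was lost without ctrl replicate 2, 3 or 5 or FL1 replicate 1, and without replicate 1 of both lines 1 was called. With copies at 95% identity 7 of 11 pooled genes had an exact permutation p of 0.05 or less. DESeq2's adjusted p of genes that it filtered were left out of these counts. Genes with a few reads per mouse, such as Cldn18, Abhd1 and Slitrk1, are limited by depth.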
